A study of Mus musculus with 32 samples.

Results

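Mouse cells carrying a doxycycline-driven Prdm14 transgene as their sole added factor, here called P14 cells, were compared with the parental clone, which carried no factor transgene and was also given doxycycline. Members were the arrays whose titles name these 2 groups on day 2, which came to 4 of the 32 arrays of the series, 2 in each group. Of 18193 genes named on the array, 17404 are autosomal, and 14878 of these were bright enough in at least 1 of the 16 groups of the series to be tested.

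The series asks which of the factors Blimp1 (gene Prdm1), Prdm14 and Tfap2c, switched on alone or together in epiblast-like cells (EpiLCs), give cells that resemble primordial germ cells. All cells of the groups used here are labelled male, with a C57BL/6 + 129 background, and carry Blimp1-mVenus and stella-ECFP reporters and a Rosa26-rtTA transgene, so both reporters and the doxycycline-responsive activator were also present in the control. P14 cells carry in addition a piggyBac vector in which a tetOx8-mCMV promoter drives 3xFLAG-Prdm14, followed by IRES-beta geo. They were made by 36 h of EpiLC differentiation and aggregation at 2000 cells per well with doxycycline at 1.5 µg/ml, and no sort is named for them. The parental control is labelled as an embryonic stem cell clone with doxycycline on day 2. Its own label does not say whether it also passed through EpiLCs and aggregation, which appear only in a protocol text shared by all samples. For reference, EpiLCs at 36 h and cells induced with BMP4 and other cytokines (Ck cells, day 2) came from the parental clone without a factor transgene, and the BP14A, BP14 and P14A cells carry all 3 factors, Blimp1 with Prdm14, and Prdm14 with Tfap2c. No label says how many clones P14 cells stand for, so clone and transgene cannot be told apart. Arrays of a group are called biological duplicates, and p-values here rest on how far such duplicates differ, which may in part be technical variation.

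Primordial germ cells are the founders of eggs and sperm, and in the mouse they arise from epiblast cells that receive BMP and WNT signals. Blimp1, Prdm14 and Tfap2c are the transcription factors known to set up their programme: the early germ cells shut off mesodermal genes, regain genes of naive pluripotency and lose DNA methylation. Prdm14 is a zinc-finger protein that is also known in embryonic stem cells for restraining FGF signalling and de novo DNA methylation.

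Each level below is a log2 value after quantile normalization, and each difference is the P14 mean minus the parental mean on that scale. A gene is called higher or lower where limma's p, adjusted by the Benjamini-Hochberg method, is under 0.05 and the change is at least 2-fold. Levels under 4.05, the 40th percentile of all values, are termed dim. Where a group mean is dim, the fold is given as a lower bound, the bright group's mean against 4.05, written "at least". Replicates correlated at 0.9806 in P14 cells and 0.9842 in parental cells, against 0.9191 to 0.9318 between the groups. The 5′ minus 3′ difference of the Gapdh control probe sets, a sign of RNA length, was -0.91 and -0.64 on the P14 arrays and -0.33 and -0.35 on the parental arrays. On the reference arrays the same difference was -3.03 and -0.42 in EpiLCs, -4.07 and -0.37 in BP14 cells and -1.03 and -0.58 in BP14A cells. It was -0.42 and -0.09 in P14A cells and -1.47 and -1.12 in Ck cells. The first EpiLC and BP14 arrays thus differed from the second. The part of this difference in the results was not tested.

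The P14 arrays went against their label in Y-linked genes. Eif2s3y, a translation factor gene on the Y chromosome, stood at 2.14 and 2.26 on the P14 arrays and at 8.77 and 8.68 on the parental arrays (at least 25.5-fold lower, adjusted p = 5.85e-12). The Y-linked demethylase gene Kdm5d stood at 2.2 and 2.8 against 5.92 and 5.95, and Uty at 3.39 and 3.76 against 5.91 and 6.34. These 3 of the 8 Y-linked genes tested were called lower, and Erdr1 (6.2 and 6.42 against 12.61 and 12.79) and Mid1 (5.1 and 4.1 against 9.06 and 8.75), both at the region that X and Y share or its border, were also lower. Xist, the RNA that coats an inactive X chromosome, stood at 5 and 4.7 in P14 cells and 5.17 and 4.87 in parental cells. Eif2s3y was also lower in P14 cells than in P14A cells (-7.27, adjusted p = 5.58e-12), BP14 cells (-6.96, adjusted p = 1.24e-11) and BP14A cells (-5, adjusted p = 4.77e-09). The cause was not tested. Unless a gene is said to be X-linked or Y-linked, the results that follow are for autosomal genes.

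**Figure D1:**
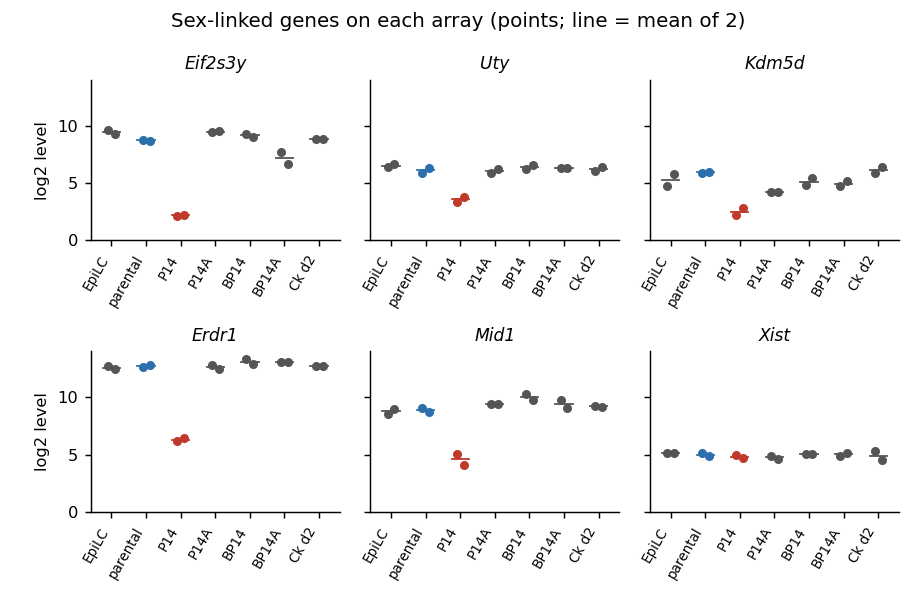
Log2 levels of 6 sex-linked genes on each array (points) with the mean of the 2 arrays of a group (lines), for P14 cells in red, parental cells in blue and other groups in grey. Eif2s3y, Uty, Kdm5d, Erdr1 and Mid1 are lower on both P14 arrays than on both parental arrays, while Xist lies between 4.7 and 5.17 in both groups.

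On the autosomes, 933 genes (6.27% of those tested) were higher and 956 (6.43%) were lower in P14 cells than in parental cells. The median difference over all genes tested was 0.03. The higher genes had a median difference of 1.59, and 306 of them differed by at least 4-fold and 41 by at least 16-fold. The lower genes had a median of -1.72, with 381 at 4-fold or more and 65 at 16-fold or more. In 161 of the higher genes the parental mean was dim, and in 216 of the lower genes the P14 mean was dim. The arrays of the groups did not overlap in 931 of the 933 higher genes and in all 956 lower genes. Separate arrays therefore add little to a call. Genes were picked for size only where the arrays did not overlap. Of the 30 genes picked for size, the 15 rises were, from the largest down, Dppa3, Prdm14, Esrrb, Morc1, Dppa2, Dazl, Nr5a2, Col9a2, Calcoco2, Lrrc34, Slco4c1, Gtsf1l, Lgals9, Msc and Tdrd12. The 15 falls were Ltb, Fst, Hoxb1, Lhx1, Hoxb2, Sp5, Nt5e, Wnt8a, Pcdh8, Acta1, Gsc, Trim67, Foxa2, Nkx1-2 and Dkk1. These are bulk samples, in which fewer cells of a type and less RNA per cell cannot be told apart.

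**Figure D2:**
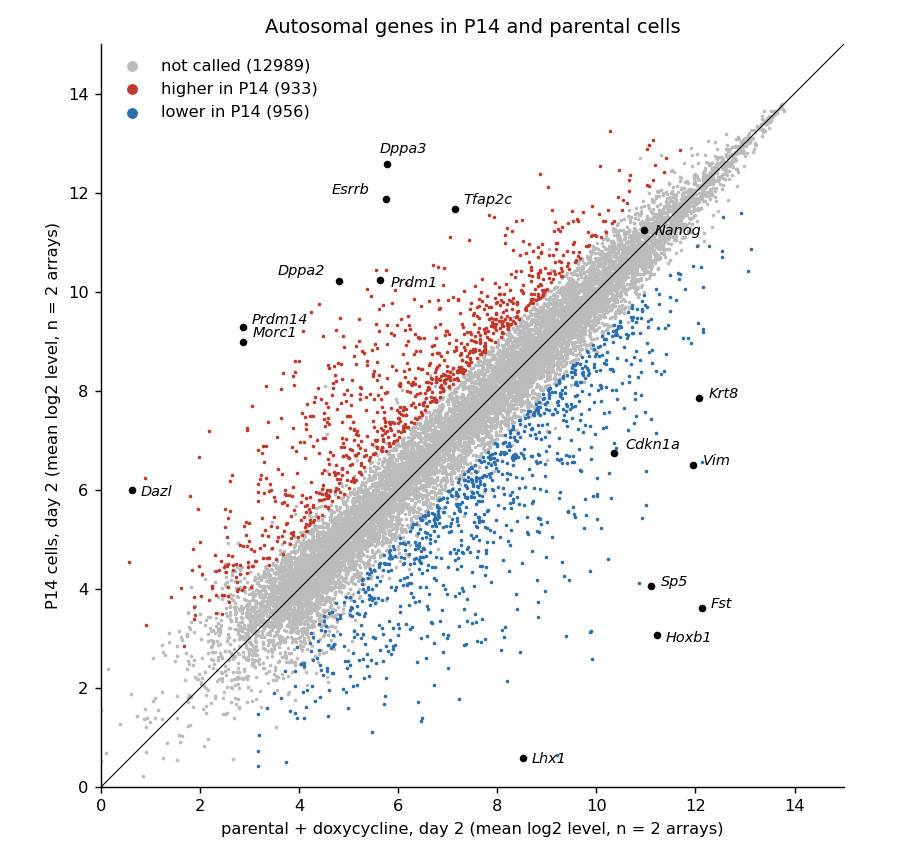
Mean log2 level of each autosomal gene tested in P14 cells (vertical) against parental cells (horizontal), n = 2 arrays per group, with the 933 genes called higher in red, the 956 called lower in blue and the others in grey. Named genes are in black; Dppa3, Prdm14 and Esrrb lie far above the line of equal levels, Fst, Hoxb1 and Lhx1 far below it, and Nanog, which was not called, close to it.

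The transgene's own gene came first as a check of the labels. Prdm14 stood at 9.45 and 9.11 on the P14 arrays and at 2.87 and 2.85 on the parental arrays, at least 37.6-fold higher (log2 difference 6.42, SE 0.25, adjusted p = 2.46e-12). Both parental values lay under the dim level. The array has 1 probe set for Prdm14, and transgene and endogenous transcripts were not told apart. Its level was 8.61 and 8.32 in BP14A cells and 8.44 and 8.78 in Ck cells, which carry no Prdm14 transgene, and the differences of 0.82 and 0.67 were not called.

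Of 15 early germ cell genes tested, 11 were higher in P14 cells and 0 were lower, with a median difference of 1.91. The 2 partner factors, which were not supplied as transgenes in these cells, were among them. Prdm1, which encodes BLIMP1, the repressor that starts germ cell specification, stood at 10.29 and 10.17 against 5.49 and 5.77 in parental cells. Tfap2c, which encodes the AP-2 gamma transcription factor, stood at 11.72 and 11.61 against 7.25 and 7.04. The groups did not overlap for either gene, and the rises were 24.3-fold (difference 4.6, SE 0.33, adjusted p = 3.54e-09) and 23-fold (4.52, SE 0.29, adjusted p = 1.1e-09). Both groups carry a Blimp1 reporter and a stella reporter.

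Dppa3, which encodes the maternal protein STELLA that guards DNA methylation, was the gene with the greatest rise among all autosomal genes tested. It stood at 12.63 and 12.5 in P14 cells and 5.43 and 6.1 in parental cells (111-fold, difference 6.8, SE 0.25, adjusted p = 2.46e-12). The EpiLC arrays gave 8.41 and 8.2, between the groups, and both differences from EpiLCs were called (4.26 for P14 and -2.54 for parental cells). Tcl1, an AKT co-activator, stood at 9.16 and 9.3 against 4.49 and 5 (22.3-fold, adjusted p = 6.55e-11). Some members encode surface proteins. Itgb3, an integrin, rose 8.54-fold (adjusted p = 4.6e-05), Kit, the receptor for stem cell factor, 4.81-fold (adjusted p = 1.6e-06), and Ifitm3, also called fragilis, 3.75-fold (adjusted p = 2.53e-05). The Kit call ended when the mean of its probe sets was used in place of the brightest.

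Further members rose by smaller amounts: Ifitm1 3.59-fold, Cbfa2t2, a co-repressor partner of PRDM14, 3.06-fold, and Alpl, the tissue-nonspecific alkaline phosphatase, 2.78-fold. The other 4 tested members were not called. Ifitm2 lay just under the 2-fold limit, with a difference of 1 and an adjusted p of 0.00252. Dnd1, which guards germ cell transcripts from microRNAs, differed by 0.66 (adjusted p = 0.106), Lin28a by -0.88 (adjusted p = 0.172) and the arginine methyltransferase gene Prmt5 by 0.11 (adjusted p = 0.807). Cxcr4, the receptor that guides germ cell migration, was dim in every group, and Nanos3 was not analysed here.

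**Figure D3:**
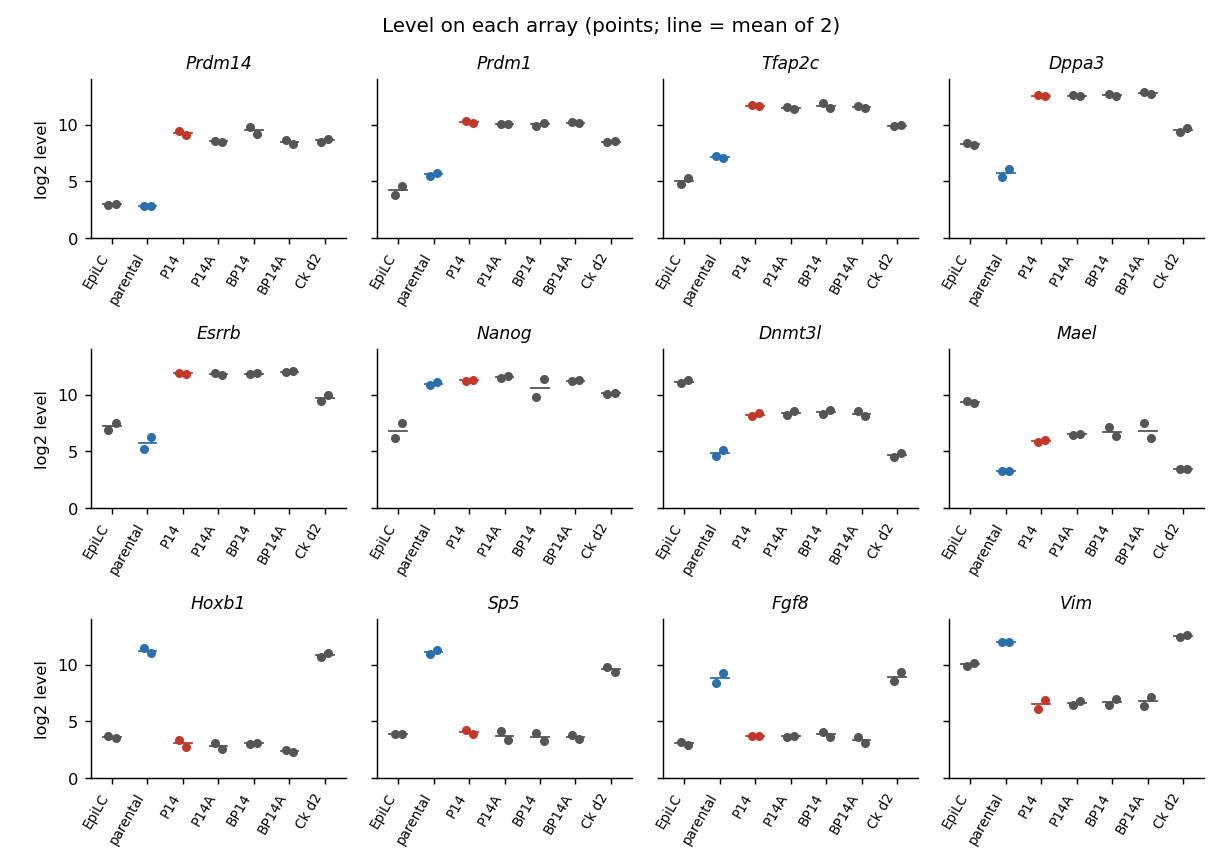
Log2 level of 12 genes on each array (points) with the mean of 2 arrays (lines); P14 cells are red, parental cells blue, other groups grey, and Ck d2 marks Ck cells on day 2. Prdm14, Prdm1, Tfap2c, Dppa3 and Esrrb are higher on both P14 arrays than on both parental arrays, Hoxb1, Sp5, Fgf8 and Vim are lower, and Nanog lies between 10.82 and 11.26 in both groups.

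A further list held genes used later in the germ line, in meiosis and in the piRNA pathway that silences transposons. Of 23 tested, 14 were called higher and 0 lower, with a median difference of 1.39. Dazl, an RNA-binding protein that licenses germ cells for sex-specific development, stood at 6.01 and 5.96 in P14 cells and 1.12 and 0.12 in parental cells, at least 3.83-fold higher (adjusted p = 5.19e-07). Ddx4, the germ cell RNA helicase also known as mouse vasa homolog, stood at 7.94 and 8.03 against 5.66 and 5.89 (4.63-fold, adjusted p = 1.85e-07). The piRNA pathway gene Tdrd12 stood at 8.5 and 8.21 against 3.45 and 3.9, at least 19.8-fold higher (adjusted p = 5.68e-09). In each of these genes both P14 arrays lay above both parental arrays.

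Among the genes of the synaptonemal complex and meiotic chromosome axis, Sycp3 rose 7.65-fold (7.31 and 7.54 against 4.33 and 4.65, adjusted p = 3.8e-05) and Hormad1 at least 2.95-fold (5.49 and 5.73 against 1.94 and 1.96, adjusted p = 1.19e-06). Tex19.1, which restrains transposons in germ cells, rose 12.1-fold (8.21 and 8.4 against 4.5 and 4.93, adjusted p = 1.08e-08). Rnf17, a component of germ cell granules, rose 6.54-fold, Piwil2, a piRNA-binding Argonaute, 3.44-fold, Stk31 at least 4.74-fold and Mael, a piRNA pathway gene, at least 3.68-fold. The called differences of Sycp1 (1.21), Sycp2 (1.39) and Rec8 (1.04), the meiotic cohesin, each ended when single arrays were left out. Stra8, the gatekeeper of meiotic entry, differed by 0.48 (adjusted p = 0.42) and the meiotic recombinase gene Dmc1 by 0.5 (adjusted p = 0.124), and neither was called. The other members not called were Piwil4 (-0.03), Tdrd5 (0.82), Tdrd9 (-0.21), Brdt (0.02), Mov10l1 (0.26), Asz1 (0.97) and Pld6 (1.14), and Tdrd1 was dim in every group.

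Levels of these genes in the starting cells differed from gene to gene. In EpiLCs Mael stood at 9.46 and 9.29, Hormad1 at 8.38 and 7.99 and Ddx4 at 8.3 and 7.83, while Brdt had a dim mean of 3.63. Against EpiLCs, 2 of the 23 were higher and 5 lower in P14 cells, with a median of -0.53. Parental cells, set against EpiLCs, had 0 higher and 15 lower (median -2.09). These comparisons share the EpiLC, P14 or parental arrays with the main one and are given side by side. In all genes tested, 5.94% were higher and 4.67% lower in P14 cells than in EpiLCs, and 7.18% were higher and 5.52% lower in parental cells than in EpiLCs.

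**Figure D4:**
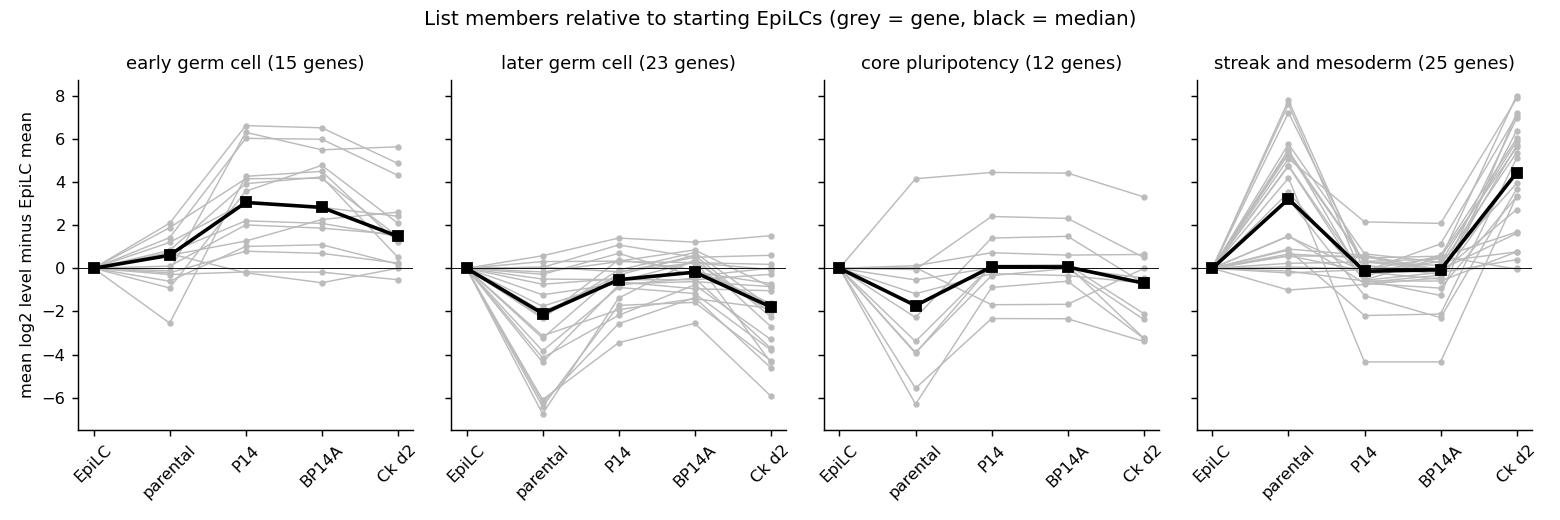
Mean log2 level of each tested member of 4 gene lists minus its EpiLC mean (grey lines) and the list's median (black squares), in EpiLCs, parental, P14, BP14A and Ck cells (day 2). The median of the later germ cell genes is -2.09 in parental cells and -0.53 in P14 cells, and that of the streak and mesoderm genes is 3.22 in parental cells and -0.14 in P14 cells.

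The upstream sequences of these germline genes are shown because several members were called higher together and a share of their windows hold one short motif. RefSeq's promoter windows (GRCm38.p6, 250 bases before to 50 after each start) covered 21 of the 23 later germ cell genes in 26 windows. Windows were searched on both strands for CACGTG, the palindromic E-box bound by basic helix-loop-helix factors, for TCCCGC, a core of E2F sites, for GCCNNNGGC, the AP-2 motif, and for GGTCTCTAA, a core published for PRDM14. The E-box and E2F letters were added after gene values had been seen. Dazl, Tdrd12, Tex19.1, Sycp2 and Rec8 were called higher and hold no CACGTG in their windows. The 250 upstream bases of 5 of the 7 genes that rose and do hold it follow, 5′ to 3′ on the gene's strand, with CACGTG in capitals.
Ddx4, chr13:112652311-112652560, minus strand: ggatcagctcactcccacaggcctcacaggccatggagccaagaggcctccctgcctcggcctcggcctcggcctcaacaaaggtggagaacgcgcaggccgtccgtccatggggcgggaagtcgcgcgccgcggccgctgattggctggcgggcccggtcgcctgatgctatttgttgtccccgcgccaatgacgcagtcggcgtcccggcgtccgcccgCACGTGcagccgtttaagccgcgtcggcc
Hormad1, chr3:95559427-95559676, plus strand: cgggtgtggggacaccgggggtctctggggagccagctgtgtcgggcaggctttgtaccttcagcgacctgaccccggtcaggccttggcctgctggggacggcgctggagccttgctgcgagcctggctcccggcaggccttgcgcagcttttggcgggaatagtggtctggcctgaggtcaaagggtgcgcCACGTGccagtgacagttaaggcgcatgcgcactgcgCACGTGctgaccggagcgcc
Slc25a31, chr3:40708621-40708870, plus strand: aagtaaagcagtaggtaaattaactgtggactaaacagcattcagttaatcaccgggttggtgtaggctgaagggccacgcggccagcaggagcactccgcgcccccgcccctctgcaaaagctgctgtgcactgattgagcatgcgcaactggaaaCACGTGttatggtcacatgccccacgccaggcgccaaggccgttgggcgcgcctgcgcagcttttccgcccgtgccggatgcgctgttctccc
Stk31, chr6:49395289-49395538, plus strand: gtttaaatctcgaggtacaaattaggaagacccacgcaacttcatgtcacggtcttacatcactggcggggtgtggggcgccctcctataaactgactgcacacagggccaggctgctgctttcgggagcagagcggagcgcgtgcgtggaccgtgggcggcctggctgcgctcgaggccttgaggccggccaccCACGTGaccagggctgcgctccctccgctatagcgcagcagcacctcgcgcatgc
Sycp3, chr10:88459337-88459586, plus strand: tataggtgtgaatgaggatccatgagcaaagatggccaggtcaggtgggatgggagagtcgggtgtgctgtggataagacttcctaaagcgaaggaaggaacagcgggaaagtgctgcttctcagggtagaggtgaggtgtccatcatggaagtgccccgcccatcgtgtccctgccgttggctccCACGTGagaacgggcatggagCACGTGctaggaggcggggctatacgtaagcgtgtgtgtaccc
The E-box starts 29 bases before the start of Ddx4, 57 and 20 before Hormad1, 93 before Slc25a31, 55 before Stk31 and 64 and 43 before Sycp3. Mael and Sycp1, whose sequences are not shown, hold it 223 and 94 bases before their starts. The E-box was present in 13 of the 26 windows (50%), and in 9 of the 15 windows (60%) of members called higher, against 9.17% of the 15109 windows of autosomal genes tested. Some genes, such as Hormad1 and Stk31, have overlapping windows that hold the same sites. By gene, the E-box was in 11 of the 21 members and in 7 of the 12 called higher. The count for all autosomal genes tested was 1294 of 11892. In a further list of germline and meiosis genes, chosen after values had been seen and with 16 of 19 higher, it was in 2 of 11 windows (18.2%). Over all genes, 10.3% of windows of higher genes, 6.53% of windows of lower genes and 9.28% of windows of genes not called held it. No test was run on these shares, since list and motif were chosen with results known.

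In the same search, 10 of the 15 early germ cell genes had a window, and Prdm14, Tfap2c, Dppa3 and Itgb3 had none. The E-box was in 0 of the 12 windows. The AP-2 motif was in 5 of 12 (41.7%), from 4 genes, against 23.5% of windows of autosomal genes tested. Over all genes, the AP-2 motif was in 23.7% of windows of higher genes and 27.5% of windows of lower genes. The upstream bases of Prdm1 hold none of the 4 motifs, and are shown beside those that do.
Prdm1, chr10:44458749-44458998, minus strand: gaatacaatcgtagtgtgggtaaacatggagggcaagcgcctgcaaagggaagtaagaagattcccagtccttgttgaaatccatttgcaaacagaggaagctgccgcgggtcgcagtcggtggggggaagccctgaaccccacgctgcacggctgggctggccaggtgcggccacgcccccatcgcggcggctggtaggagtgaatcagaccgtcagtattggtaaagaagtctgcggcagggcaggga
The PRDM14 letters were rare everywhere. They were in 0.1% of the windows of higher genes, 0.201% of those of lower genes and 0.252% of windows of autosomal genes tested. The E2F letters were in 60% of the windows of later germ cell members called higher and in 31.6% of windows tested. Over all genes, they were in 34.9% of windows of higher genes and 36.3% of windows of lower genes. None of these matches shows binding, and sites farther away were not searched.

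Naive pluripotency genes, active in the pre-implantation epiblast and in ground-state stem cells, were 9 higher and 2 lower of 16 tested, with a median of 2.79. Esrrb, an orphan nuclear receptor, stood at 11.9 and 11.84 in P14 cells and 5.25 and 6.24 in parental cells (69.8-fold, adjusted p = 4.92e-08). Nr5a2, a nuclear receptor that can activate Pou5f1, stood at 9.9 and 9.61 against 4.18 and 4.6 (41.1-fold, adjusted p = 1.47e-10). Klf2, a Kruppel-like factor of the naive network, stood at 11.58 and 11.51 against 7.54 and 8.12 (13.2-fold, adjusted p = 1.71e-08). The P14 arrays were the higher ones in each case, with no overlap.

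Zfp42, known as Rex1, rose 14.9-fold, Fbxo15 15.4-fold, Tfcp2l1 8.58-fold, Dppa5a 7.77-fold and Lifr, the receptor for the cytokine LIF, 6.18-fold. Pecam1 rose at least 6.8-fold, a call that ended without P14 replicate 2 or parental replicate 1, and the Tfcp2l1 call ended with the mean of its probe sets. Zfp42 and Dppa5a were already at 9.37 and 9.49 and at 13.35 and 13.37 in EpiLCs, whereas Esrrb (6.91 and 7.53), Klf2 (6.14 and 6.11) and Nr5a2 (5.05 and 5.14) were lower there than in P14 cells. The other called members fell. Gbx2, a homeobox gene downstream of LIF and WNT signals, stood at 3.82 and 4.53 against 9.71 and 9.19 (38.8-fold lower, adjusted p = 7.63e-10), and Socs3, a STAT3 target, fell 3.22-fold, a call that ended without P14 replicate 1 or parental replicate 2. Klf4 (2.21 and 4.51 against 3.73 and 4.11), Klf5, Tbx3 and Stat3 were not called, nor was Manba, which differed widely between arrays (5.75 and 8.5 against 3.69 and 5.42).

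In the core pluripotency list, 7 of 12 were higher and 1 lower, with a median of 2.85. Nanog, the homeodomain factor shared by naive cells and germ cells, did not pass: it stood at 11.23 and 11.26 in P14 cells and 10.82 and 11.11 in parental cells (difference 0.28, SE 0.45, adjusted p = 0.742). Both groups lay above EpiLCs, where Nanog stood at 6.14 and 7.47, and both differences from EpiLCs were called (4.44 for P14 and 4.16 for parental cells). Pou5f1, which encodes OCT4, stood at 12.77 and 12.72 against 12.04 and 12.34, a difference of 0.56 that was under the 2-fold limit (adjusted p = 0.00628). Sall4 (0.6) and L1td1 (0.92) were also under that limit. Against EpiLCs, 3 of the 12 were higher and 2 lower in P14 cells (median 0.07). In parental cells 1 was higher and 7 lower than in EpiLCs (median -1.73).

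Sox2, the partner of OCT4, separated the groups. It stood at 12.55 and 12.5 in P14 cells and 10.33 and 9.81 in parental cells (5.49-fold, adjusted p = 1.65e-08), with EpiLCs at 10.13 and 10.12. Dppa2 and Dppa4, a pair of chromatin proteins that act on germline and early embryonic genes, stood at 10.22 and 10.22 against 4.25 and 5.38 and at 11.54 and 11.46 against 7.66 and 8.23. They were 42.4-fold and 11.7-fold higher. Gdf3 (16.8-fold), Zfp296 (12.9-fold), Utf1 (11.4-fold) and Fgf4 (9.42-fold) also rose. The member that fell, the Nodal co-receptor gene Tdgf1 (3.3-fold), was no longer called without P14 replicate 1 or parental replicate 2.

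Of 16 primed epiblast genes, which mark the post-implantation epiblast and EpiLCs, 9 were lower and 2 higher, with a median of -1.89. Cdh2, N-cadherin, stood at 4.88 and 5.23 in P14 cells and 9.33 and 8.87 in parental cells (16.5-fold lower, adjusted p = 3.54e-09). Sox11 fell 5.47-fold, Fzd2, a WNT receptor, 5.11-fold, Tead2 4.2-fold, Pou3f1, known as Oct6, 4.07-fold, and Fgf5, the classic primed marker, 3.87-fold. Fgf5 stood at 8.44 and 8.35 in P14 cells, 10.13 and 10.56 in parental cells and 10.1 and 9.76 in EpiLCs. Otx2, a homeobox gene that is known to hold back entry to the germ line, went the other way, at 8.23 and 7.97 against 5.72 and 6.36 (4.17-fold higher, adjusted p = 0.000548), and its difference of -0.98 from the EpiLC levels of 9.21 and 8.94 was not called.

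FGF ligands, receptors and feedback inhibitors showed no common direction, with 6 higher and 7 lower of 24 and a median of -0.21. Among ligands, Fgf4 rose 9.42-fold, while Fgf8 (3.71 and 3.75 against 8.42 and 9.23, at least 27.4-fold), Fgf17 (4.82-fold), Fgf5 and Fgf15 (2.61-fold) fell. Among receptors, Fgfr2 rose 4.84-fold (8.62 and 8.17 against 6.11 and 6.13, adjusted p = 3.4e-05), whereas Fgfr1 differed by -0.79 and was not called. Among feedback inhibitors and early response genes, Dusp4, a phosphatase acting on ERK, rose 4.38-fold and Ier3 10.2-fold, while Spry2 fell 3.95-fold, Il17rd, also known as Sef, 2.53-fold and the early response gene Egr1 4.51-fold. Spry4 (0) and Etv4 (0.45) did not differ by a called amount, and Fos, which stood at 8.01 and 10.97 on the P14 arrays, was not called (-0.89, SE 0.93).

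Of 16 regulators of DNA methylation, 3 were higher (18.8%) and 1 lower (6.25%), with a median of 0.26. Dnmt3l, the cofactor of de novo methylation, stood at 8.09 and 8.36 in P14 cells and 4.6 and 5.11 in parental cells (10.3-fold higher, adjusted p = 1.14e-08), and at 11.06 and 11.25 in EpiLCs, above both groups. The de novo methyltransferase gene Dnmt3a stood at 8.82 and 9 against 9.12 and 9.04 and was not called (adjusted p = 0.747), and both groups lay below EpiLCs at 11.74 and 11.89. Dnmt3b was called 3.58-fold lower, but its P14 values of 10.09 and 11.3 differed from each other and the call ended under 5 of 13 alternatives. Tet1, which oxidises methylcytosine, rose 3.87-fold (adjusted p = 0.000371), a call that ended with the mean of its probe sets. Dnmt1 differed by 0.22 and Uhrf1, its recruiting partner, by -0.84, and neither was called.

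Of 20 histone modifier genes, 4 were higher and 0 lower, with a median of 0.27. Jarid2, a subunit of the Polycomb complex PRC2, rose 3.47-fold (11.37 and 11.46 against 9.68 and 9.56, adjusted p = 2.37e-07), and Kdm3a, a histone H3 demethylase, rose 3.06-fold. The called rises of Cbx7 (2.66-fold) and Suz12 (2.45-fold) ended with the mean of all probe sets, and that of Suz12 also without single arrays. The PRC2 genes Ezh2 (0.26) and Eed (0.11) and the histone methyltransferase gene Ehmt1 (-0.12) were not called.

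Among genes of the primitive streak and early mesoderm, 16 of 25 were lower in P14 cells and 0 higher, with a median of -3.03. Hoxb1, the first gene of its Hox cluster, stood at 3.36 and 2.78 in P14 cells and 11.46 and 10.99 in parental cells, at least 145-fold lower (difference -8.15, SE 0.46, adjusted p = 1.47e-10). Fst, a secreted inhibitor of activins, stood at 2.94 and 4.29 against 12.08 and 12.18, at least 272-fold lower (adjusted p = 2.52e-11). Lhx1, a homeobox gene of the streak and node, stood at 1.18 and 0 against 8.21 and 8.82, at least 22.1-fold lower. The P14 means of these genes were dim. The groups did not overlap, which the rule that picked these genes for size required.

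Evx1 (at least 27.4-fold), Cdx1 (at least 30.1-fold), Mixl1 (at least 20-fold), Gsc (at least 17.6-fold), the T-box gene Eomes (16.7-fold), Rspo3 (7.58-fold) and Snai1 (4.59-fold) also fell. Cdx2 fell at least 5.38-fold. Several mesodermal genes were not called. Mesp1 stood at 6 and 5.56 against 5.71 and 6.01, Hand1 at 2.74 and 2.76 against 3.02 and 1.96, and Kdr, Pdgfra and Foxf1 differed by -0.01, 0.06 and -0.18. The gene T was not analysed here. Against EpiLCs, 1 streak gene was higher and 1 lower in P14 cells (median -0.14), while 15 of 25 were higher and 0 lower in parental cells (median 3.22). Hoxb1 stood at 3.71 and 3.54 in EpiLCs, and Fst at 8.07 and 7.83, above both P14 values.

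Of 14 WNT ligands, inhibitors and targets, 9 were lower and 0 higher, with a median of -3.19. Sp5, Rspo3, Wnt3, Wnt3a and Cdx1 are members of both this list and the streak list. Sp5, a direct target of beta-catenin, stood at 4.2 and 3.9 in P14 cells and 10.93 and 11.29 in parental cells (133-fold lower, adjusted p = 2.14e-09). Wnt8a stood at 4.01 and 4.21 against 11.02 and 10.68 (107-fold lower, adjusted p = 2.46e-12). Dkk1, a secreted inhibitor of WNT co-receptors, stood at 4.03 and 4.68 against 10.05 and 9.67 (45.4-fold lower, adjusted p = 5.14e-09). The groups were separate in all 3, which the rule that picked them for size required. Wnt5b fell 14.5-fold, Axin2, the negative feedback gene of the pathway, 11-fold, and cyclin gene Ccnd1 2.88-fold. The repressor gene Tcf7l1 (0.91), Lef1 (-0.75) and Notum (0.1) were not called. Against EpiLCs, 2 of the 14 were higher and 2 lower in P14 cells (median -0.12). In parental cells 9 were higher and 1 lower than in EpiLCs (median 2.98).

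In the list of BMP targets, 3 of 13 were lower and 2 higher: Id1 stood at 6.42 and 6.79 against 9.32 and 9.16 (6.22-fold lower, adjusted p = 3.94e-09), Id3 fell 4.4-fold and Msx1 3.14-fold, while Id4 rose 10.5-fold (7.71 and 7.96 against 3.7 and 5.17). Gata2 rose at least 5.18-fold, a call that ended with the mean of its probe sets. Id2 differed more between replicates than between groups (2.68 and 6.15 against 2.01 and 5.68) and was not called. In the Nodal list, 2 of 13 were lower, Fst and Tdgf1. Nodal itself (-0.99, SE 1.02), Lefty1 (0.32) and Foxh1 (-0.14) were not called.

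**Figure D5:**
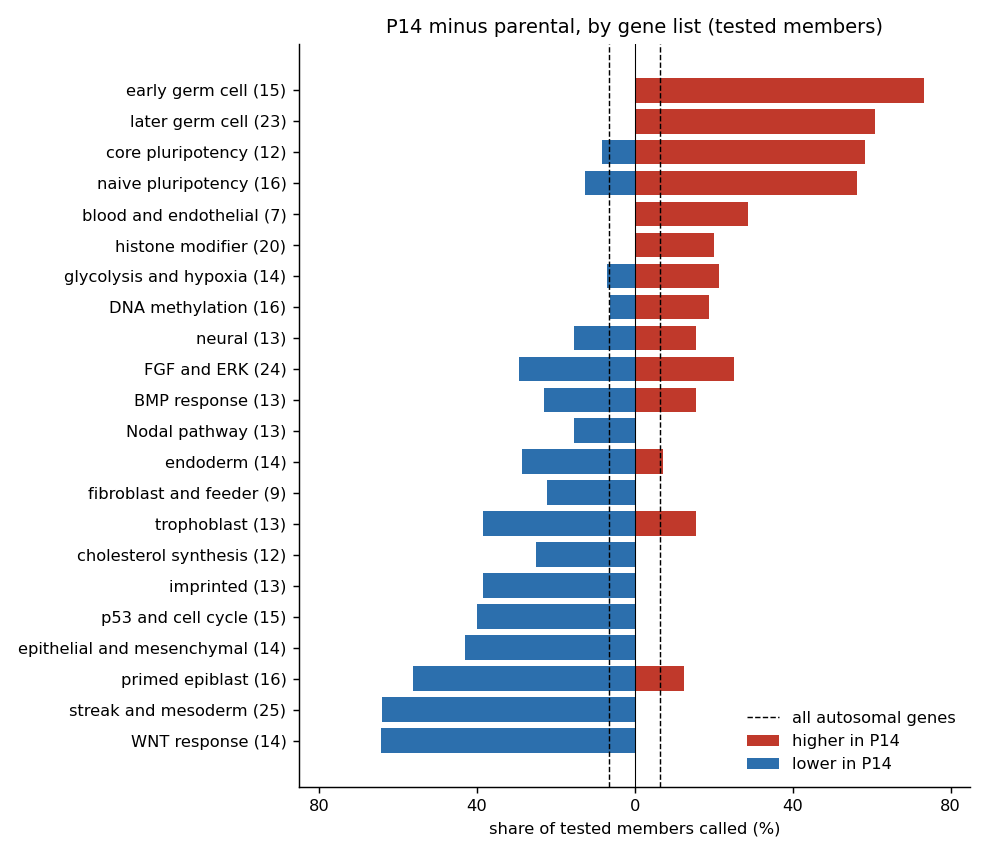
Share of tested members called higher (red, to the right) and lower (blue, to the left) in P14 cells relative to parental cells for 22 gene lists, with the number tested in brackets; dashed lines mark 6.27% and 6.43%, the shares of all autosomal genes tested. Early germ cell genes (73.3% higher) and later germ cell genes (60.9% higher) stand at the top, and streak and WNT genes (64% and 64.3% lower) at the bottom.

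Markers of other lineages that the wells could hold were mixed. Of 14 endoderm genes, 4 were lower and 1 higher: Foxa2 stood at 4.08 and 5.1 in P14 cells and 9.93 and 10.52 in parental cells (49.8-fold lower, adjusted p = 4.07e-10), Foxa1 fell at least 6.99-fold and Gata6 at least 5.71-fold, the calls of Sox17 (2.1-fold lower) and Sox7 (2.44-fold higher) ended when an array was left out (P14 replicate 1 for Sox17, any of the 4 for Sox7), and Afp, Ttr and Apoa1 lay between 3.45 and 4.83 in both groups. The summed linear level of the endoderm list was 494 and 530 on the P14 arrays, 1632 and 2141 on the parental arrays and 524 and 421 on the EpiLC arrays. In the trophoblast list, 5 of 13 were lower and 2 higher. The falls were Krt8 (18.8-fold), Krt18 (6.44-fold), Krt19 (5.91-fold), Cdx2 and Eomes. The rises were Gata2 (6.5 and 6.34 against 3.37 and 3.75) and Ascl2 (4.68 and 5.06 against 2.62 and 3.29, difference 1.92, adjusted p = 0.000178), both transcription factor genes of trophoblast. Hand1, Gata3, Elf5 and Tfap2a were not called. The summed level was 1313 and 1388 against 9792 and 10836, and the EpiLC arrays gave 2647 and 2223.

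Among 13 neural genes, 2 were lower and 2 higher. Sox1 fell at least 9.92-fold (2.17 and 3.61 against 7.95 and 6.76, adjusted p = 6.37e-06) and Nes 19.8-fold, the latter call ending with the mean of its probe sets. Hesx1, a homeobox gene also found in naive cells, rose 14-fold. Tubb3 was also higher (1.94), a call that ended without P14 replicate 2 or parental replicate 1. Pax6 differed by 0.63 and was not called. The neural sums of 1481 and 1604 against 1608 and 1579 overlapped, and the EpiLC arrays gave 1623 and 1460. Among fibroblast and feeder markers, the collagen genes Col1a1 (1.86 and 2.53 against 3.43 and 3.94), Col1a2 and Col3a1 were not called, and 2 of 9, Acta2 and Tagln, were lower, both calls ending under alternatives. The summed level was 282 and 358 against 1303 and 1881, and the EpiLC arrays gave 1064 and 1027. Of 7 blood and endothelial genes tested, Tek and Pecam1 were higher, and the globin genes Hbb-bh1, Hbb-y and Hba-x were not called. Pecam1 is also a member of the naive pluripotency list. The sum was 329 and 374 against 175 and 189, and the EpiLC arrays gave 315 and 342. No member of these 5 lists was listed at 0 on both arrays of a group. The part of any such cells in the results was not tested.

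In the epithelial and mesenchymal list, 6 of 14 were lower and 0 higher. Vim, vimentin, stood at 6.09 and 6.91 in P14 cells, 11.97 and 11.95 in parental cells and 9.9 and 10.12 in EpiLCs (43.9-fold lower than parental, adjusted p = 6.55e-11). The keratin genes Krt8 (-4.23) and Krt18 (-2.69) were also among the lower. The epithelial genes Cdh1 (-0.47), Epcam (0.49) and Cldn6 (0.06) were not called. Neither were the mesenchymal members Snai2 (-0.63), Zeb1 (-0.21), Zeb2 (-0.01) and Fn1 (0.83). Of 15 p53 and cell cycle genes, 6 were lower and 0 higher. Cdkn1a, the inhibitor p21, stood at 6.51 and 6.97 against 10.51 and 10.21 (12.3-fold lower, adjusted p = 2.17e-05), and Phlda3 fell 4.37-fold, Ccng1 4.3-fold, Cdkn1c 3.65-fold and Pmaip1, known as Noxa, 2.72-fold. Mdm2, another p53 target, stood at 10.16 and 10.05 against 10.18 and 10.22 and was not called.

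Of 13 imprinted genes, 5 were lower and 0 higher: Sgce at least 9.03-fold, Plagl1 8.13-fold (6.71 and 7.01 against 10.3 and 9.47), Cdkn1c, Grb10 3.43-fold and Igf2 3.07-fold, the last 2 ending with the mean of probe sets. Peg3 (-0.16), Mest (-0.52) and Meg3 (-0.45) were not called. In glycolysis and hypoxia, 3 of 14 were higher and 1 lower. Ldha, lactate dehydrogenase A, stood at 10.24 and 10.57 on the P14 arrays, 13.05 and 13.1 on the parental arrays and 13.03 and 13.17 on the EpiLC arrays (6.34-fold lower than parental, adjusted p = 4.19e-06), while Pdk1, which holds pyruvate out of the mitochondrion, rose 8.57-fold. Of 12 cholesterol synthesis genes 3 were lower, among them Cyp51 (2.38-fold), and 0 were higher. The 4 reference genes tested were not called, with Actb at -0.32, Tbp at -0.03, Sdha at 0.09 and Ywhaz at -0.47.

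Several of the genes picked for size fall outside these lists. Ltb, the cytokine lymphotoxin beta, stood at 0.8 and 0.51 in P14 cells and 9.01 and 9.39 in parental cells, at least 35.6-fold lower (adjusted p = 9.65e-08). Nt5e, an ecto-nucleotidase, stood at 2.28 and 4 against 9.95 and 9.83, at least 57.3-fold lower, and Pcdh8, a protocadherin of the paraxial mesoderm, at 2.4 and 3.87 against 9.82 and 9.9, at least 56.2-fold lower. Acta1, skeletal actin, fell at least 40.3-fold, Nkx1-2, a homeobox gene of the caudal epiblast, 47.2-fold and Trim67 at least 21.1-fold. Among the rises, Calcoco2, an autophagy receptor, stood at 9.56 and 9.59 against 4.2 and 4.28 (40.3-fold, adjusted p = 5.29e-07), Lrrc34 rose 35.5-fold, Msc, a helix-loop-helix repressor, at least 23.4-fold, Lgals9, a galectin, at least 16.4-fold, Slco4c1, a transporter, at least 8.8-fold and Col9a2, a collagen chain, at least 4.53-fold. Gtsf1l stood at 10.46 and 10.39 against 5.45 and 5.63 (difference 4.89, adjusted p = 3e-11).

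Set against their starting cell type, P14 cells had 884 genes higher (5.94%) and 695 lower (4.67%) than EpiLCs. EpiLCs came from the parental clone, so clone and treatment cannot be told apart here. Of 15 early germ cell genes, 12 were higher and 0 lower, with a median of 3.05. Tfap2c differed by 6.61 (4.82 and 5.29 in EpiLCs, adjusted p = 2.32e-11) and Prdm1 by 6.02 (3.78 and 4.64, adjusted p = 2.35e-10). Of 16 primed genes, 0 were higher and 7 lower, among them Pou3f1 (-3.97), Dnmt3a (-2.91) and Fgf5 (-1.54). Among the largest falls were Mt3, a metallothionein, at 3.62 and 4.69 against 8.95 and 9.43 (-5.03, adjusted p = 0.000649) and Dcn, decorin, at 4.79 and 4.52 against 8.98 and 9.06 (-4.37, adjusted p = 2.58e-06), neither of which was called against parental cells.

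Few genes were called between P14 cells and the lines that carry further factors on day 2. P14 cells had 10 autosomal genes higher (0.0672%) and 3 lower (0.0202%) than BP14A cells, 0 higher and 2 lower (0.0134%) than BP14 cells, and 0 in either direction than P14A cells. At an unadjusted p under 0.05 the limma counts were 886, 519 and 493 of 14878 autosomal genes tested. With no difference at all, a share of about 0.05 of the genes would pass that limit. A p that misses the threshold does not show that the cells were alike. The counts against BP14A rest on single arrays: without P14 replicate 1 they were 4 higher and 4 lower, without P14 replicate 2 they were 0 and 6, without BP14A replicate 1 they were 9 and 1, and without BP14A replicate 2 they were 3 and 4. When the fit held only the arrays compared, both were 0.

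Among the 10 higher, Gja1, a gap junction connexin, stood at 7.9 and 8.77 in P14 cells and 5.89 and 6.26 in BP14A cells (2.25, adjusted p = 0.0153), with parental cells at 11.1 and 11.5. Egr1 stood at 8.12 and 8.94 against 6.52 and 6.79 (1.88, adjusted p = 0.0075), with parental cells at 10.82 and 10.59. Podxl, a sialomucin (1.44), and F2r, a thrombin receptor (1.27), also had P14 means between those of BP14A and parental cells, as had Tmem159 (5.75 against 4.47 and 6.53). In the other 5 the P14 mean lay above both: Cbr3 had means of 9.15 in P14, 7.31 in BP14A and 8.63 in parental cells, Thy1 of 5.71, 4.11 and 5.34, Bicdl2 of 5.65, 4.48 and 4.57, Slfn9 of 5.08, 3.18 and 3.24, and 4831440E17Rik of 4.44, 2.18 and 2.47. Some of these are outside the rule for named genes and were added after their values were seen. Among the 3 lower, Tcl1 stood at 9.16 and 9.3 against 10.42 and 10.43 (-1.2, adjusted p = 0.0468), and Cbx3, which encodes a heterochromatin protein, at 3.88 and 4.28 against 7.71 and 7.45 (-3.5, adjusted p = 0.0075). The 2 genes lower than in BP14 cells were Cbx3 (-3.02, adjusted p = 0.0395) and Gm1673 (-4.46, adjusted p = 0.0142), and Gm1673 was also among the 3 lower than in BP14A cells (-4.68, adjusted p = 0.0075). Gm1673 is a model name, and it is given here after its values were seen. Cbx3 was also called lower than in parental cells (-2.01), a call that ended without P14 replicate 1 or parental replicate 2.

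The early germ cell levels of P14 and BP14A cells are set side by side here. Prdm1 stood at 10.29 and 10.17 in P14 cells against a BP14A mean of 10.19, and Tfap2c at 11.72 and 11.61 against 11.56. Dppa3 stood at 12.63 and 12.5 against 12.8 and Esrrb at 11.9 and 11.84 against 12.02. In the lists, 1 of 15 early germ cell genes (Tcl1) and 0 of 23 later ones were called between P14 and BP14A, and the median differences were 0.04 and -0.31. Dazl stood at 6.01 and 5.96 in P14 cells and had a BP14A mean of 7.77, a difference that was not called. Primed genes had a median of 0.67, with 0 of 16 called.

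Against Ck cells on day 2, P14 cells had 841 genes higher (5.65%) and 958 lower (6.44%). Ck cells come from the parental clone with cytokines and no doxycycline is named for them, so clone, transgene and medium cannot be told apart. Streak genes were 0 higher and 21 lower of 25, with a median of -5.07, and BMP targets 0 higher and 9 lower of 13, with a median of -2.89. Id1, the direct BMP target, had a mean of 12.86 in Ck cells and stood at 6.42 and 6.79 in P14 cells, a difference of -6.25. Hand1, which was not called against parental cells, had a mean of 9.88 in Ck cells and stood at 2.74 and 2.76 in P14 cells, a difference of -7.13. Neither gene overlapped between P14 and Ck cells.

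Of 15 early germ cell genes, 6 were higher and 1 lower in P14 cells, with a median of 0.72: Dppa3 differed by 3.06, Kit by 2.68, Tfap2c by 1.76 and Prdm1 by 1.72, and Dnd1 was lower by -1.34. Of 23 later germ cell genes 12 were higher and 0 lower, with a median of 1.19, led by Dazl (2.98), Tex19.1 (2.94) and Sycp3 (2.89). Primed epiblast genes were mixed, with 5 higher and 4 lower of 16 and a median of 0.39. Otx2 (4.27, Ck mean 3.83) and Fgf5 (4.16, Ck mean 4.23) were among those higher in P14 cells than in Ck cells. Tbx3, a T-box gene of the naive network, was lower by -3.9.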

How the data were processed

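Amplified cDNA from 20000 cells per sample was hybridised to 1-colour Affymetrix arrays, 2 per group, and how many arrays there are limits the precision. The authors deposited normalized values that are read here as log2, from their range of 0 to 14.59, since no source used here states the scale; array medians ran from 4.62 to 4.78. These values were quantile-normalized across all 32 arrays with limma 3.58.1 in R 4.3.3. Probe sets with 1 gene symbol in GEO's platform annotation were kept (34945, with 932 naming several genes and 9160 unlisted), symbols were updated through RefSeq (34741 matched), and the brightest probe set stood for a gene. Genes with a group mean of at least 4.05 were tested in 1 limma fit with a mean per group, 16 residual degrees of freedom and Benjamini-Hochberg adjustment over all 15497 genes tested. The fit was tested on simulated data. Named genes were drawn from the 15 largest rises and falls, up to 4 called members of each list in each direction, the 8 largest rises and falls of each other comparison, leaving out clone and model names, and the members of the early germ cell, pluripotency, primed, FGF and DNA methylation lists; others named were added after their values were seen. Members and lists were chosen with earlier results of these data known. Alternatives covered normalization, probe sets, filters, thresholds, the arrays in the fit, a replicate block and single arrays left out.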

Additional observations from a re-analysis of the deposited data

Results flagged for a closer look

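Genes on the X chromosome lie outside the autosomal comparison, and called differences between P14 and parental cells were found there. Of 514 X-linked genes tested with limma, 46 were higher and 61 lower in P14 cells, or 8.95% and 11.9%. The shares of autosomal genes tested were 6.27% and 6.43%. Among the higher were the reproductive homeobox genes Rhox9 (log2 difference 7.95), Rhox6 (3.74) and Rhox5 (2.41) and the orphan nuclear receptor gene Nr0b1 (5.6). Among the lower were Apln, which encodes a peptide ligand (-6.42), and the neural transcription factor gene Sox3 (-3.13). The Y-linked genes Eif2s3y, Uty and Kdm5d were lower in the same arrays. The part of the sex chromosomes' content in these counts was not tested.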

How the results depend on the processing

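With no fold limit the counts against EpiLCs were 1609 higher and 1308 lower. Against BP14A cells, 6 genes were higher with no filter on dim genes, 3 were higher at an adjusted p under 0.01, 17 were higher and 7 lower in a fit of the 22 new arrays, and 0 were called either way in a fit of only the arrays compared. Leaving out single arrays gave 785 to 916 higher and 797 to 957 lower against parental cells, 694 to 940 and 550 to 719 against EpiLCs, 675 to 804 and 797 to 922 against Ck cells, and 0 to 9 and 1 to 6 against BP14A cells. The count of 0 higher than in BP14A cells came without P14 replicate 2 and that of 1 lower without BP14A replicate 1. The balance of higher to lower genes turned in some settings: against parental cells 933 to 956 became 1688 to 1501 with no fold limit, 805 to 804 at an adjusted p under 0.01, 869 to 826 without parental replicate 1 and 895 to 817 without parental replicate 2, and against BP14A cells 10 to 3 became 0 to 6 without P14 replicate 2 and 3 to 4 without BP14A replicate 2. Against Ck cells 841 to 958 became 1543 to 1497 with no fold limit. Of the named genes recomputed against parental cells, none that was called reversed. Of 1009 called genes with several probe sets, 55 have another probe set at least 2-fold the other way. The replicate numbers are shared by 2 arrays a group, and same-numbered arrays deviated together by correlations of 0.162 to 0.27; with a replicate block, 932 genes were higher and 953 lower than in parental cells, and 7 and 3 against BP14A cells, and no call of a named gene changed. Of 162 named genes called, 126 stayed called under every setting at the main threshold. Using the mean of all probe sets ended 20 calls and added 8. The cause was not tested. Levels under 4.05 give bounds only.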

Other observations

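Further gene groups were listed after their values had been seen, so their counts describe these arrays and support nothing. Of 20 genes of interferon response and antigen processing, 11 were lower and 0 higher in P14 cells than in parental cells, with a median of -1.5. Gbp2, an interferon-induced GTPase, stood at 2.86 and 3.6 against 8.41 and 7.91, and B2m, the light chain of class I antigen molecules, at 9.16 and 9.18 against 10.63 and 10.82. Ifit1 (-0.45) and Irf7 (0.19) were not called. Of 16 genes of the extracellular matrix and its remodelling, 10 were lower and 0 higher, with a median of -2.46: the basement membrane collagen gene Col4a1 stood at 2.98 and 3.78 against 7.68 and 7.69, and the protease gene Mmp2 at 5.06 and 5.82 against 9.52 and 9.59. Sparc (-0.29) and Lamc1 (0.35) were not called.

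Of 10 genes of retinoic acid handling, 7 were lower and 1 higher, with a median of -2.02. Cyp26a1, which degrades retinoic acid, stood at 4.76 and 5.34 in P14 cells and 7.78 and 8.31 in parental cells, while Aldh1a2, which makes it, was higher at 6.6 and 6.39 against 5.71 and 4.78. Of 31 Hox genes 4 were lower: Hoxa2, Hoxb1, Hoxb2 and Hoxb13. Of 19 further germline and meiosis genes, 16 were higher and 0 lower, with a median of 2.87. Morc1, a germline silencing factor, stood at 8.99 and 8.97 against 2.43 and 3.31, Rec114, of the meiotic break machinery, at 7.81 and 7.56 against 2.77 and 3.34, and Dmrt1 at 8.75 and 8.85 against 5.16 and 5.36. Spo11, which makes the breaks, was not called (4.1 and 4.13 against 5.02 and 4.14). In EpiLCs Morc1 stood at 8.99 and 8.91 and Rec114 at 8.86 and 9.06.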
